A study of Mus musculus with 24 samples.

Results

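Mouse bone marrow neutrophils express a set of 98 genes that were strongly lower after 4 hours with lipopolysaccharide and interferon γ (LPS/IFNγ) and close to their untreated level after IL4 or IGF1. The genes were chosen by their values in the LPS/IFNγ, IL4, IGF1 and untreated libraries, so the differences between those groups are given as a description and were not tested. The conditions were a difference from untreated of -1.5 or lower with LPS/IFNγ and between -0.4 and 0.4 with IL4 and with IGF1, as group means of log2(RPKM + 0.1). RPKM is the number of reads on a gene relative to its length in kilobases and to the mapped reads of the library. In addition, the highest LPS/IFNγ library had to lie below the lowest untreated one, and the untreated mean had to reach 5 RPKM. The files held 48709 genes, of which 5470 reached that level, and 115 of these were lower by 1.5 or more. All 115 met the condition on overlap, 99 of them also lay within both bands, and Cd101 was left out because the rule names it.

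The neutrophils were isolated by Percoll gradient from the leg bones of C57Bl/6J mice. All 6 groups were cultured for 4 hours in medium with serum, with 4 libraries each: LPS at 10 ng/mL with IFNγ at 2 ng/mL, IL4 at 20 ng/mL, IGF1 at 10 ng/mL, insulin at 10 and at 100 ng/mL, and untreated cells. Column headers numbered the libraries of each group 6, 9, 10 and 11. These numbers are called preparations here, although the headers do not say what they number. Each also marks a run of consecutive libraries, so the cells and the library run cannot be told apart. The study stated 4 mice, and no source used here ties a preparation to a mouse, so p-values measure the spread between these libraries.

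Neutrophils leave the bone marrow after a maturation in which C/EBP transcription factors switch on granule and receptor genes in turn. LPS acts through the receptor TLR4 and NF-κB, and IFNγ through its own surface receptor. Together they are used to drive neutrophils into an inflammatory state, commonly called N1, while IL4 drives a state called N2. Chemoattractant receptors of these cells couple to G proteins, and their signals pass through phosphoinositide 3-kinase γ and are shut off by RGS proteins and arrestins.

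Of the 98 genes, 9 were on the 14 lists of genes by role, and 5 of those 9 combined a place among the 12 largest differences or the 12 highest levels with an entry in the promoter table. Their promoters are shown because they carry the genes on which the description below turns: the transcription factor Cebpa, the G protein regulator Rgs2, the kinase Pik3cg, the activating receptor Cd300lb and the sorting receptor Sorl1. Each line runs 5′ to 3′ on the strand of the gene, from 250 bases before to 50 bases after the start, from RefSeq on GRCm38.p6. Capitals mark matches to the motifs searched.
Cebpa: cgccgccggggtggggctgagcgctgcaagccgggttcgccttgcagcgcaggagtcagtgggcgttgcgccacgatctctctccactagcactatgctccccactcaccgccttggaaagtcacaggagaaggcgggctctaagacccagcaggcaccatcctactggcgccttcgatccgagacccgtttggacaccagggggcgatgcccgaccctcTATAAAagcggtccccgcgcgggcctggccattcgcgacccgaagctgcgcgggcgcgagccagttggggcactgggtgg
Rgs2: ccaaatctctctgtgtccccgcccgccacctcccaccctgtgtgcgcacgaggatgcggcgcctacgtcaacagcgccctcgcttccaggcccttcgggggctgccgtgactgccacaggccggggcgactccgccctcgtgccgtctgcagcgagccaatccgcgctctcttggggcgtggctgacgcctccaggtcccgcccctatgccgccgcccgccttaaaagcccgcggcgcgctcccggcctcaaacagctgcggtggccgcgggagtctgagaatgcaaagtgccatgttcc
Pik3cg: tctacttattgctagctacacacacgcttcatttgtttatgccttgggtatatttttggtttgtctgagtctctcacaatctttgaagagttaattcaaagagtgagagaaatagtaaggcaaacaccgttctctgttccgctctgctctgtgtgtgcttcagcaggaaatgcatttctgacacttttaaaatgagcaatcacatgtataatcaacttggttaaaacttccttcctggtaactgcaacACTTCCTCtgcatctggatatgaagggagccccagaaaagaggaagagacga
Cd300lb: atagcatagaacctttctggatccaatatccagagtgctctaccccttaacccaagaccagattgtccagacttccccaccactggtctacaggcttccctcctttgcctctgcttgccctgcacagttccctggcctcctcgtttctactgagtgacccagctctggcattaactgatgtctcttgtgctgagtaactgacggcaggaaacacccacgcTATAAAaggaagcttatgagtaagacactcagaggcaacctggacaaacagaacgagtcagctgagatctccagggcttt
Sorl1: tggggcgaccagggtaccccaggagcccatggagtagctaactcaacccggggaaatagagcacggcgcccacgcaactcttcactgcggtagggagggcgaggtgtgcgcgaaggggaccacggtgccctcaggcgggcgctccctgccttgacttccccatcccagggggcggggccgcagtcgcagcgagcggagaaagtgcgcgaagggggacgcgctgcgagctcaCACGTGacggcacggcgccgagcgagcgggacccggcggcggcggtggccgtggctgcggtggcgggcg
These windows lie at chr7:35119043-35119342 on the plus strand (Cebpa), and on the minus strand at chr1:144004100-144004399 (Rgs2), chr12:32208610-32208909 (Pik3cg), chr11:114934322-114934621 (Cd300lb) and chr9:42124248-42124547 (Sorl1). The capitals in Cebpa and in Cd300lb are a TATA box beginning 30 bases before the start. In Pik3cg they are the PU.1 letters on the opposite strand, beginning 2 bases before the start, and in Sorl1 an E-box beginning 19 bases before it. Rgs2 held none of the motifs.

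Motifs were searched on both strands in the 73 members with a promoter entry, in all 27025 promoters of the table and in 4066 promoters of other genes with an untreated mean of 5 RPKM or more, called expressed here. The letters were TTGCNNAA for C/EBP, GAGGAAGT for PU.1, TGTGGT for RUNX, TGANTCA for AP-1, TGACGTCA for the cyclic AMP response element, CCACACCC for KLF, CACGTG for the E-box and TATAAA for the TATA box. The NF-κB, NRF1 and interferon-stimulated response elements were searched too, and the RUNX and KLF letters can overlap. The C/EBP letters stood in 5 of 73 member promoters (6.85%), in 10.8% of all promoters and in 8.53% of expressed ones. The NF-κB letters stood in 0 of 73, in 0.385% of all promoters and in 0.492% of expressed ones. The KLF letters were the reverse case, with 6 of 73 (8.22%) against 3.57% and 4.25%. For 3 motifs the direction turned with the comparison. The TATA box stood in 12.3% of member promoters, 14.2% of all and 6.59% of expressed ones. AP-1 stood in 6.85%, 7.93% and 4.50%, and the E-box in 8.22%, 7.24% and 10.9%. The shares of the others, in the same order, were 2.74%, 3.28% and 3.96% (PU.1), 8.22%, 16.9% and 12.1% (RUNX), 2.74%, 3.49% and 3.39% (interferon-stimulated response element), 1.37%, 1.88% and 3.47% (cyclic AMP response element), and 0, 0.977% and 2.14% (NRF1). These are counts of letters in short windows and carry no test.

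The members differed with LPS/IFNγ by a median of -1.78 on the log2 scale, 3.42-fold lower than untreated, while the median of all genes tested was -0.22. Differences ran from -3.27 (Fbxo31, 9.65-fold) to -1.502 (Rps6ka2, 2.83-fold), with 22 members at -2 or lower. Across all 13062 genes tested with LPS/IFNγ against untreated, 17.8% were called lower and 1.92% were at -1.5 or lower. All 98 members passed the filter on low values and were called, which the rule itself brought about. Untreated levels of the members ran from 5.02 to 379 RPKM with a median of 18.9 RPKM, against a median of 14.5 RPKM over the 5470 genes. The LPS/IFNγ means ran from 0.742 to 87.99 RPKM, so no member was lost: the lowest number of reads in any LPS/IFNγ library was 12, for Gm20406, over the 62 members whose values came out as whole reads.

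**Figure D1:**
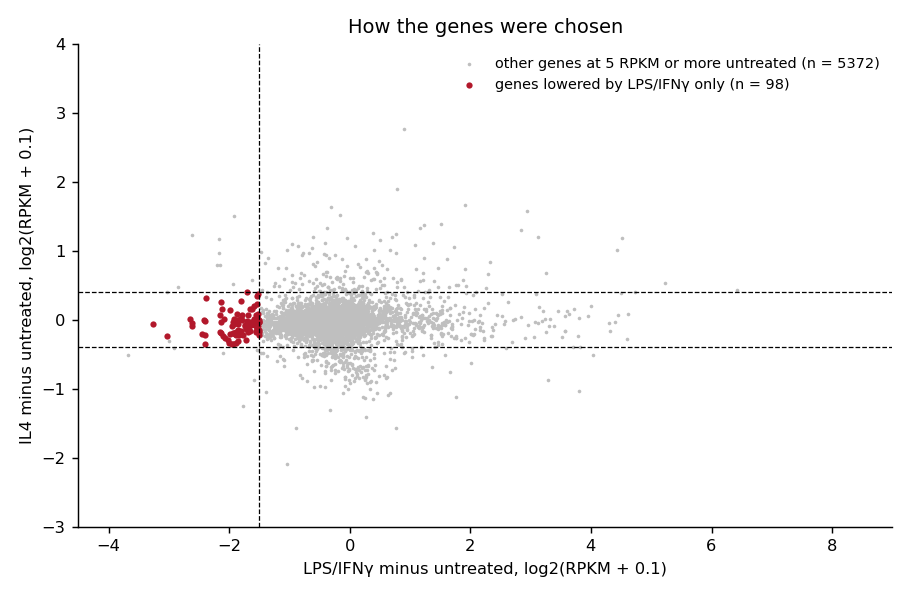
Each point is a gene with an untreated mean of 5 RPKM or more, by its difference from untreated with LPS/IFNγ (x axis) and with IL4 (y axis), both in log2(RPKM + 0.1). The 98 chosen genes (red) lie left of -1.5 and between -0.4 and 0.4, among 5372 other genes (grey), and dashed lines mark those thresholds.

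Near the thresholds the choice separated genes with almost equal values. Rps6ka2, Fhl3 and Grn lay just inside at -1.502, -1.503 and -1.506, and Zfyve26, Tbc1d10c and B230208H11Rik just outside at -1.498, -1.497 and -1.479. With IL4, Fnip2, 2410016O06Rik and Pctp lay inside at absolute differences of 0.398, 0.374 and 0.356, and Nat8l and Hist1h2br outside at 0.406 and 0.875. With IGF1, Pde2a_2, Fnip2 and Pctp lay inside at 0.391, 0.387 and 0.377, and no gene was left out by that band alone. Dctpp1, Dusp7 and Gm14703 lay just above the level of 5 RPKM at 5.02, 5.11 and 5.17 RPKM, and Npc1, 2410131K14Rik and Tpcn1 just below at 4.99, 4.99 and 4.90 RPKM. The highest LPS/IFNγ library came closest to the lowest untreated one in Dctpp1, at 0.816 of it, in Pde2a_2, at 0.687, and in A430078G23Rik, at 0.503.

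A further 16 genes were as much lower with LPS/IFNγ but left a band. With IL4, 10 of them lay above untreated and 6 below.

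Libraries held 18748634 to 30925209 mapped reads. The summed level of 12 neutrophil markers was 89897 to 108402 RPKM in LPS/IFNγ libraries and 106187 to 120148 RPKM in untreated ones, far above every other marker list. The erythroid sum varied widely within groups, at 603 to 4602 RPKM with LPS/IFNγ and 664 to 6177 RPKM untreated. Of its 12 genes tested, 0 were called lower and 0 higher. The eosinophil sum was 2007 to 2808 RPKM with LPS/IFNγ and 2116 to 2380 RPKM untreated, with 1 of 9 genes called lower and 0 higher. The summed level of the basophil and mast cell list was 257 to 336 RPKM with LPS/IFNγ against 65.2 to 100.1 RPKM untreated, but 1 of its 9 genes was called higher and 0 lower. The dendritic cell sum was 26.4 to 36.8 RPKM with LPS/IFNγ against 10.6 to 11.2 RPKM untreated, with 3 of 9 genes called higher and 2 lower. Their part in the differences of the members was not tested. In bulk RNA, fewer cells of a type and less RNA per cell cannot be told apart. RPKM is a share of the library, and with median-of-ratios scaling all genes shifted up: the 2322 lower and 1065 higher calls with LPS/IFNγ became 1243 lower and 1527 higher. Under that scaling the members stayed between -3.05 and -1.25, with a median of -1.53.

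Among regulators of transcription and RNA, Cebpa stood out. It encodes C/EBPα, which is required for progenitors to enter the granulocyte lineage. Cebpa (chr7:35119293-35121928, GRCm38) had 2.83, 3.59, 3.38 and 3.25 RPKM in the LPS/IFNγ libraries of preparations 6, 9, 10 and 11, against 21.3, 20.3, 20.5 and 19.5 RPKM in the untreated ones. The groups were far apart, by 6.12-fold, and each was tight. IL4 libraries had 17.9 to 22.6 RPKM and IGF1 libraries 19.1 to 23.1 RPKM, around the untreated range.

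The other C/EBP genes on the list of 55 tested myeloid transcription factors did not move together. Cebpb, known for its part in emergency granulopoiesis, was called higher, with 22.0 ± 7.25 RPKM in LPS/IFNγ libraries and 6.09 ± 2.26 RPKM in untreated ones (SD, n = 4 each; 1.84, limma adjusted p = 0.00115). Cebpd was called lower, with 8.24 ± 1.02 against 19.8 ± 0.839 RPKM (-1.26, limma adjusted p = 2.96e-06). Cebpe, which drives secondary granule genes, had 94.5 ± 6.35 against 156 ± 4.02 RPKM, a difference of -0.73 called with RPKM (limma adjusted p = 7.62e-06) and not with median-of-ratios scaling. On the whole list 16 genes were called lower and 8 higher, and 10 lower and 11 higher with that scaling, so the balance of the list depends on it.

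Zfp36l2, which binds AU-rich elements of messenger RNAs and speeds their decay, was the most abundant regulator of RNA among the members. Its levels were 22.9, 33.3, 31.7 and 28.1 RPKM in LPS/IFNγ libraries and 97.1, 104, 109 and 96.9 RPKM in untreated ones, a 3.53-fold difference. The zinc finger genes Zfp746, Zfp652 and Zbtb39 were members as well. Of the 374 genes tested with zinc finger symbols, 51 were called lower (13.6%, below the 17.8% over all genes tested) and 14 higher. With median-of-ratios scaling, 22 were called lower and 34 higher.

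Receptors of 3 kinds were among the members. Tlr5, the receptor for bacterial flagellin, had 1.92, 3.16, 2.49 and 3.00 RPKM in LPS/IFNγ libraries, against 8.68, 9.44, 10.2 and 10.9 RPKM in untreated ones. As the rule required of every member, each LPS/IFNγ value lay below every untreated value. The list of pattern recognition receptors went the other way: of 24 genes tested, 14 were called higher and 3 lower, which were Tlr5, Nlrp12 and Nlrx1. Tlr2, which recognises bacterial lipopeptides with TLR1 or TLR6, had 240.5 ± 37.2 RPKM in LPS/IFNγ libraries and 45.3 ± 13.1 RPKM in untreated ones (2.44, limma adjusted p = 1.92e-05). Tlr4, the LPS receptor, had 15.7 ± 0.705 against 10.2 ± 1.57 RPKM (0.64, limma adjusted p = 0.000996).

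CD300 genes encode paired immunoglobulin-like receptors of myeloid cells, with inhibitory and activating forms. Cd300lb, an activating form that signals with the adaptor DAP12, was on the list named inhibitory receptors, whose 23 tested genes gave 11 lower and 5 higher calls, against 9 and 7 with median-of-ratios scaling. Cd300lb had 31.5, 45.5, 33.9 and 45.1 RPKM in LPS/IFNγ libraries and 105, 116, 108 and 117 RPKM in untreated ones. IL4 and IGF1 libraries were above the untreated ones, at 142 ± 14.9 and 142 ± 13.1 RPKM, a difference of 0.34 that is still inside the band. Cd300c2, also an activating form, had 4.88, 3.75, 3.22 and 4.77 RPKM with LPS/IFNγ against 22.5, 20.5, 21.1 and 22.7 RPKM untreated. Both lie on chromosome 11, Cd300lb at chr11:114922781-114934386 and Cd300c2 at chr11:114996721-115001880. Other CD300 genes on the list differed in direction. Cd300lf, an inhibitory form, was called higher, with 122 ± 2.37 against 57.2 ± 2.86 RPKM (1.09, limma adjusted p = 2.12e-07). Cd300a, another inhibitory form, was called lower, with 11.3 ± 1.24 against 23.3 ± 1.51 RPKM (-1.04, limma adjusted p = 7.30e-06).

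Csf1r encodes the receptor for the macrophage growth factor CSF1 and is a marker of monocytes and macrophages as well as a member. It had 8.61, 7.94, 12.04 and 8.28 RPKM in LPS/IFNγ libraries, against 27.8, 24.2, 39.2 and 26.7 RPKM in untreated ones. Preparation 10 gave the highest level in both groups. Of 13 monocyte and macrophage markers tested, 6 were called lower and 1 higher. Those lower were Csf1r, Ccr2, Cx3cr1, F13a1, Fn1 and Cd68, and Vcam1 was higher. The summed level of the 14 listed was 279 to 391 RPKM in LPS/IFNγ libraries and 267 to 340 RPKM in untreated ones, most of it Ly6c2, and none was at 0 in every library. Their part in the difference of Csf1r was not tested. On the list of cytokine and growth factor receptors, 8 of 36 genes were called lower and 11 higher, against 5 and 12 with median-of-ratios scaling. Csf3r, the G-CSF receptor of neutrophils, had 259 ± 21.4 RPKM in LPS/IFNγ libraries and 364 ± 25.1 RPKM in untreated ones and was not called (-0.50).

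**Figure D2:**
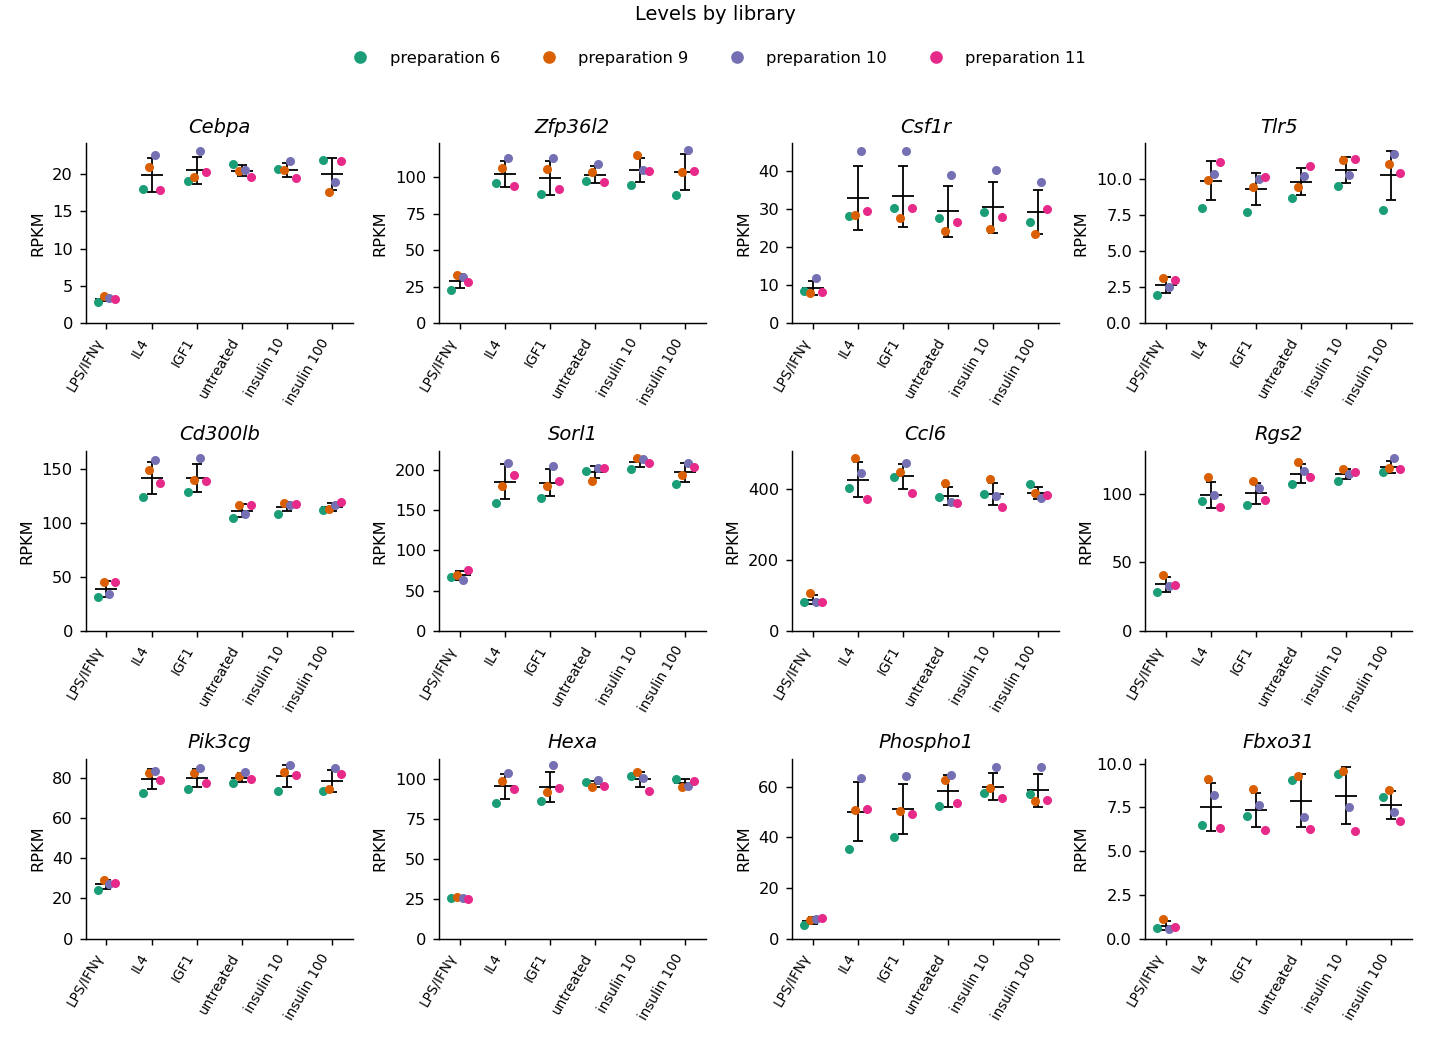
Levels of 12 members in every library, in RPKM on axes that start at 0. Points are libraries coloured by preparation, and bars give the mean and SD of 4 libraries; in each panel the LPS/IFNγ libraries lie below those of the other 5 groups, and Csf1r is highest in preparation 10 throughout.

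Sorl1, a sorting receptor that moves cargo between the Golgi and endosomes, was among the most abundant members. Sorl1 had 66.7, 69.3, 63.7 and 75.7 RPKM in LPS/IFNγ libraries and 198, 185, 202 and 202 RPKM in untreated ones. Mcam, the adhesion molecule CD146, had 7.28, 8.98, 6.46 and 7.41 RPKM with LPS/IFNγ against 40.5, 44.8, 34.8 and 40.6 RPKM untreated. The difference of Mcam, at 5.29-fold, was larger than that of Sorl1, at 2.86-fold.

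Secreted proteins gave the most abundant member. Ccl6, a CC chemokine of rodents, had 82.1, 108, 80.6 and 81.4 RPKM in LPS/IFNγ libraries, against 376, 416, 363 and 359.8 RPKM in untreated ones. Even at 4.33-fold lower it remained well expressed, and the LPS/IFNγ library of preparation 9 stood above its 3 fellows. Tgfbi, an extracellular matrix protein induced by TGFβ, had 18.2, 17.6, 15.7 and 16.3 RPKM with LPS/IFNγ and 81.4, 74.8, 72.0 and 74.5 RPKM untreated. Grn, the precursor of progranulin, had 23.3, 23.3, 22.3 and 26.0 RPKM with LPS/IFNγ and 64.7, 66.2, 71.9 and 67.0 RPKM untreated.

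Genes that carry or end signals of G protein-coupled receptors formed another group, put together by known function after the values were seen. Rgs2, which speeds the inactivation of Gq, had 28.3, 41.1, 33.1 and 33.7 RPKM in LPS/IFNγ libraries and 107, 123, 117 and 113 RPKM in untreated ones. Arrb1, β-arrestin 1, which uncouples and internalises active receptors, had 4.65, 5.40, 4.77 and 5.09 RPKM against 20.9, 22.2, 22.8 and 22.9 RPKM. Both groups of values were tight, and Arrb1 was 4.39-fold lower. Among the other RGS genes on the list of GTPase regulators, Rgs14 and Rgs18 were called lower at -0.65 and -0.72, but not with median-of-ratios scaling, and Rgs3, Rgs16 and Rgs19 were not called under either scaling. Rgs1 was called, as higher, with median-of-ratios scaling alone. On that list 21 of 55 genes were called lower and 2 higher, against 10 and 6 with median-of-ratios scaling.

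Pik3cg encodes p110γ, the phosphoinositide 3-kinase that Gβγ activates and that steers neutrophil migration. Pik3cg had 23.9, 29.0, 27.3 and 27.7 RPKM in LPS/IFNγ libraries and 77.1, 80.9, 82.6 and 79.3 RPKM in untreated ones, 2.96-fold lower. Its regulatory partners were not called: Pik3r5 had 16.0 ± 0.670 RPKM with LPS/IFNγ and 22.4 ± 1.04 RPKM untreated (-0.49), and Pik3r6 had 14.2 ± 2.172 and 13.3 ± 0.803 RPKM (0.08). Pik3cb, the p110β subunit, was called lower at -1.34 (limma adjusted p = 1.04e-06). Pik3cd, the p110δ subunit, was not called with RPKM (0.49) and was called higher with median-of-ratios scaling (0.74). Of the 36 phosphoinositide and diacylglycerol genes tested, 11 were called lower and 4 higher, against 6 and 5 with median-of-ratios scaling.

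Both type II regulatory subunits of protein kinase A, which hold the kinase inactive until cyclic AMP binds, were members. Prkar2b had 4.85, 5.83, 5.73 and 6.45 RPKM in LPS/IFNγ libraries and 21.8, 20.1, 23.3 and 20.97 RPKM in untreated ones. Prkar2a had 2.57, 2.69, 2.15 and 2.15 RPKM with LPS/IFNγ and 8.43, 7.31, 7.39 and 6.45 RPKM untreated. Prkar2b and Pik3cg are neighbours on chromosome 12, with no annotated protein-coding gene in the 112176 bases between them.

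Kinase cascades had 2 members on the list of MAP kinase and calmodulin kinase genes. Map3k5, the stress kinase ASK1 upstream of JNK and p38, had 8.73, 10.2, 10.8 and 9.64 RPKM in LPS/IFNγ libraries and 33.2, 31.8, 33.6 and 32.0 RPKM in untreated ones. Dusp7, a phosphatase of ERK, had 1.25, 1.77, 1.73 and 1.63 RPKM with LPS/IFNγ and 5.63, 5.51, 5.01 and 4.30 RPKM untreated. Mapk3, which encodes ERK1, was not a member but was called lower at -1.20 (limma adjusted p = 8.61e-08). Dusp16, a phosphatase of JNK, was called higher at 1.81 (limma adjusted p = 1.62e-06). Of the 40 genes tested on this list, 15 were called lower and 6 higher, against 6 and 7 with median-of-ratios scaling. Bmx, a Tec family tyrosine kinase outside the list, had 10.5, 11.6, 9.32 and 9.41 RPKM with LPS/IFNγ and 47.8, 41.9, 38.01 and 38.4 RPKM untreated.

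**Figure D3:**
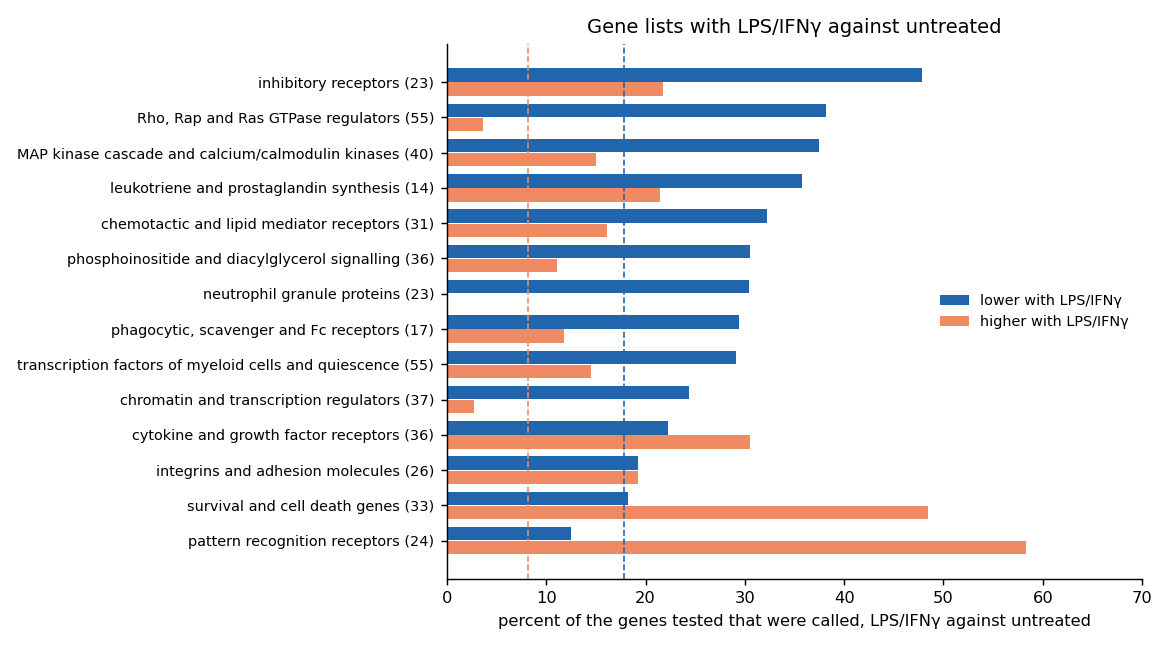
Bars give, for each of the 14 gene lists, the percentage of the genes tested (number in brackets) that were called lower (blue) or higher (orange) with LPS/IFNγ against untreated, and dashed lines give the same over all genes tested. Inhibitory receptors had the largest share of lower calls (11 of 23), and pattern recognition receptors had 14 higher and 3 lower of 24.

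Genes of β-catenin signalling were gathered after their values were seen. Frat1 and Frat2 encode proteins that bind GSK3 and keep it from β-catenin, and they lie tail to tail on chromosome 19 with 13388 bases between them. Frat1 had 2.98, 4.17, 2.90 and 3.20 RPKM in LPS/IFNγ libraries and 10.9, 11.9, 9.66 and 9.26 RPKM in untreated ones. Frat2 had 4.12, 5.19, 4.17 and 3.37 RPKM with LPS/IFNγ and 12.3, 15.3, 12.2 and 10.4 RPKM untreated. The pair had similar levels and similar differences, of -1.63 and -1.56. Amer2, which binds APC and restrains the pathway, had 2.85, 5.13, 4.98 and 6.06 RPKM with LPS/IFNγ and 16.8, 20.7, 22.3 and 23.96 RPKM untreated. Ctnnbip1, which blocks binding of β-catenin to TCF, had 1.43, 1.23, 1.60 and 2.11 RPKM with LPS/IFNγ and 6.29, 5.49, 6.02 and 6.56 RPKM untreated. So the lower genes included proteins that promote and proteins that restrain the pathway.

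Lysosomal proteins, also gathered after the fact, included Hexa, whose values were steady, and Arsg, whose values varied more. Hexa, the α subunit of β-hexosaminidase, had 25.2, 26.0, 25.2 and 25.0 RPKM in LPS/IFNγ libraries and 98.4, 95.3, 99.5 and 95.97 RPKM in untreated ones. The 4 LPS/IFNγ libraries of Hexa differed by little, with a mean of 25.4 ± 0.459 RPKM. Arsg, a lysosomal sulfatase, had 2.68, 2.45, 2.10 and 3.07 RPKM with LPS/IFNγ and 8.20, 8.002, 6.51 and 8.34 RPKM untreated.

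Enzymes of lipid metabolism included the second largest difference. Phospho1, a phosphatase of phosphocholine and phosphoethanolamine known from bone mineralisation, had 5.19, 7.31, 7.81 and 8.14 RPKM in LPS/IFNγ libraries and 52.4, 62.5, 64.7 and 53.5 RPKM in untreated ones. It was 8.18-fold lower, and it lies within the annotated span of Zfp652, a member on the same strand that was 2.91-fold lower. Cyp4f18, which inactivates leukotriene B4 in mouse neutrophils, had 24.2, 29.3, 24.2 and 31.4 RPKM with LPS/IFNγ and 90.7, 102, 101 and 99.0 RPKM untreated. Dgat2, which makes triacylglycerol, had 14.2, 14.7, 16.3 and 21.1 RPKM with LPS/IFNγ and 46.3, 44.1, 50.2 and 54.1 RPKM untreated. Abhd15, an α/β-hydrolase domain protein, had 0.986, 1.70, 1.02 and 1.02 RPKM with LPS/IFNγ and 7.85, 8.80, 7.75 and 6.22 RPKM untreated. The lipid genes Plin3, a lipid droplet coat protein, Mgll, monoacylglycerol lipase, and Pctp, a phosphatidylcholine carrier, differed by -1.74, -1.80 and -1.95.

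Other metabolic members covered NADPH, selenium and retinol. Idh1, which makes NADPH in the cytosol, had 8.02, 7.97, 7.74 and 7.13 RPKM in LPS/IFNγ libraries and 32.6, 30.1, 30.1 and 29.9 RPKM in untreated ones. Sephs2, which makes the selenium donor for selenoproteins, had 45.8, 67.6, 66.1 and 62.4 RPKM with LPS/IFNγ and 179, 211, 214 and 193 RPKM untreated. The selenoprotein gene Sepn1 was a member too, at -1.54. Rdh12, a retinol dehydrogenase, had 30.3, 28.7, 29.7 and 26.3 RPKM with LPS/IFNγ and 83.6, 75.03, 92.05 and 78.1 RPKM untreated.

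The largest difference belonged to Fbxo31 (chr8:121549440-121578806), the substrate-binding part of a ubiquitin ligase. It had 0.626, 1.12, 0.535 and 0.690 RPKM in LPS/IFNγ libraries and 9.05, 9.28, 6.94 and 6.26 RPKM in untreated ones. At 55 reads or more in each LPS/IFNγ library, the low values still rested on countable reads. Of 278 tested genes with ubiquitin system symbols, 48 were called lower (17.3%, near the share over all genes) and 34 higher, but 20 lower and 42 higher with median-of-ratios scaling. No other gene on that list was a member.

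Cdk5r1, the p35 activator of CDK5, came after Fbxo31 and Phospho1 at -2.65, with 1.48, 2.77, 1.85 and 2.09 RPKM with LPS/IFNγ and 12.5, 13.8, 13.2 and 12.6 RPKM untreated. Rab11fip4, which links Rab11 to recycling endosomes, had 1.68, 2.53, 1.86 and 2.12 RPKM against 11.2, 11.4, 11.03 and 11.5 RPKM. Arl11, a small GTPase of the ARF family, had 5.73, 9.39, 8.998 and 10.3 RPKM against 38.2, 47.1, 48.3 and 46.2 RPKM. All 3 were more than 5-fold lower, and their LPS/IFNγ library of preparation 6 was the lowest. Nt5dc2, which has a 5′-nucleotidase domain, was lower, at -2.44. Fam101b, now called Rflnb and known as a partner of filamin, was one of the abundant members, with 34.9, 44.0, 34.6 and 38.5 RPKM with LPS/IFNγ and 123, 120.3, 106 and 117 RPKM untreated.

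Of the 96 members with an annotated position, 89 were protein coding. Gm11714, annotated as a processed transcript, had 2.00, 3.13, 1.83 and 2.58 RPKM in LPS/IFNγ libraries and 11.5, 13.98, 11.6 and 14.5 RPKM in untreated ones, and it lies opposite Pitpnc1. Gm20406, annotated as antisense, lies within Klhdc4, also a member, and the 2 were lower, at -1.85 and -1.80. The library kit keeps the strand of the RNA, but no source used here states whether the counting did, and values of such pairs may share reads. In all, 17 members overlap another gene with an untreated mean of 1 RPKM or more. Pde2a_2 and Zfand4_1 are each one of several features with the same name in the files and were given no position.

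Within preparations the differences of the members varied in size. The member medians were -1.83, -1.65, -1.84 and -1.70 in preparations 6, 9, 10 and 11, where the medians of all genes tested were -0.23, -0.22, -0.26 and -0.21. All 98 members were lower in all 4 preparations, which the condition on overlap fixed, and 50% of all genes tested were. The number of members at -1 or lower was 97, 98, 98 and 97 in preparations 6, 9, 10 and 11. In all 4 preparations at once it was 96, against 3.59% of all genes tested. The 2 exceptions were Pde2a_2, at -0.61 in preparation 6, and Dctpp1, at -0.67 in preparation 11. Preparation 6 held the largest difference of 44 members and preparation 9 the smallest of 54. The median range of a member over preparations was 0.34.

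**Figure D4:**
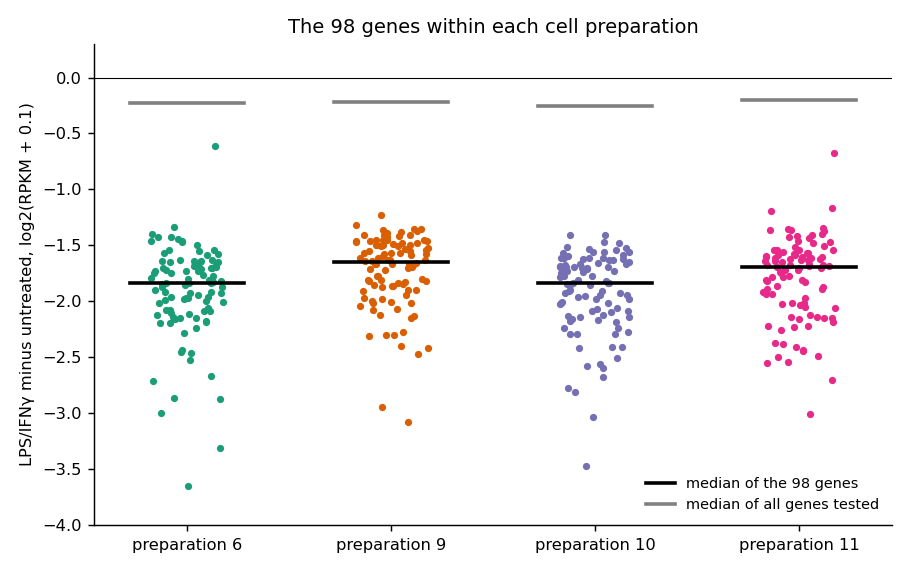
Each point is a member, by its difference between the LPS/IFNγ and the untreated library of the same preparation in log2(RPKM + 0.1). Black lines give member medians, between -1.84 and -1.65, and grey lines the medians of all genes tested, between -0.26 and -0.21.

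Set against all 20 libraries of the other groups, 97 of the 98 members had every LPS/IFNγ library below every other one, as did 25.4% of all genes tested. The exception was Pde2a_2, whose LPS/IFNγ libraries had 4.10, 2.65, 1.34 and 1.38 RPKM while an IGF1 library had 3.29 RPKM. Against the insulin groups, which the rule did not use, the members were lower with LPS/IFNγ, with a median difference of -1.80 (insulin at 10 ng/mL) and -1.79 (100 ng/mL). All 98 were without overlap against each dose, as were 35.7% (10 ng/mL) and 36.7% (100 ng/mL) of all genes tested. Since the LPS/IFNγ values chose the members, these are descriptions as well. With IL4 and IGF1, the medians over all 98 members were -0.07 and -0.08, where those over all genes tested were 0.01 and 0.01. The member values lay within the bands that the rule set, and both treatments share the untreated libraries. Libraries of a group agreed closely: the median coefficient of variation of a member was 14.9% with LPS/IFNγ, 11.95% with IL4, 11.1% with IGF1 and 8.35% in untreated cells.

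The insulin libraries were not used to choose the members, but the untreated libraries were, so the comparisons of insulin with untreated are independent of the choice on the insulin side alone. No member was called at either dose. With insulin at 10 ng/mL against untreated, limma called 0 of 13055 genes (0%). An unadjusted p under 0.05 was reached by 174 of these genes and by 0 of the 98 members. With preparations paired, it was reached by 632 genes and by 2 members. The members differed by -0.12 to 0.17 with a median of 0.03, and the 95% interval of 97 members lay within 1.5-fold. Gm20406 was the exception, from -0.60 to 0.38. For Cebpa the difference was 0.01, with an interval from -0.11 to 0.13, and for Csf1r it was 0.05, from -0.37 to 0.47.

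With insulin at 100 ng/mL against untreated, limma called 0 of 13108 genes (0%), with 321 at an unadjusted p under 0.05. The members had a median difference of 0.00, and the intervals of all 98 lay within 1.5-fold. Mcam and Fhl3 had an unadjusted p under 0.05, at -0.26 (interval -0.48 to -0.03) and -0.13 (-0.24 to -0.01), and a limma adjusted p of 1.00. With preparations paired, 1030 of the 13108 genes and 9 of the 98 members were under 0.05 unadjusted, and none was called. The member share was near that over all genes, so nothing about the members is read from it.

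The comparison of the 2 doses used no library that chose the members. Limma called 0 of 13112 genes (0%) between insulin at 100 and at 10 ng/mL. An unadjusted p under 0.05 was reached by 565 genes, among them 5 of the 98 members. With preparations paired, it was reached by 1039 genes, among them 10 members. Both member shares were near those over all genes, so nothing about the members as a set is read from them. Mcam had 33.6, 34.3, 28.6 and 38.4 RPKM at 100 ng/mL against 42.5, 43.0, 34.8 and 40.5 RPKM at 10 ng/mL, lower in each of the 4 preparations. Its difference was -0.26 (interval -0.48 to -0.03, limma adjusted p = 1.00). Fhl3 (-0.17), Dnajc28 (-0.24), Rps6ka2 (-0.12) and Gm11714 (0.17) were the other members under 0.05 unadjusted without pairing. The differences of Mcam and Fhl3 from untreated used the same insulin 100 ng/mL libraries. Intervals of all 98 members lay within 1.5-fold, so a difference of that size between the doses was outside the interval for each. Without the insulin 10 ng/mL library of preparation 11, 86 genes were called, none of them a member.

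**Figure D5:**
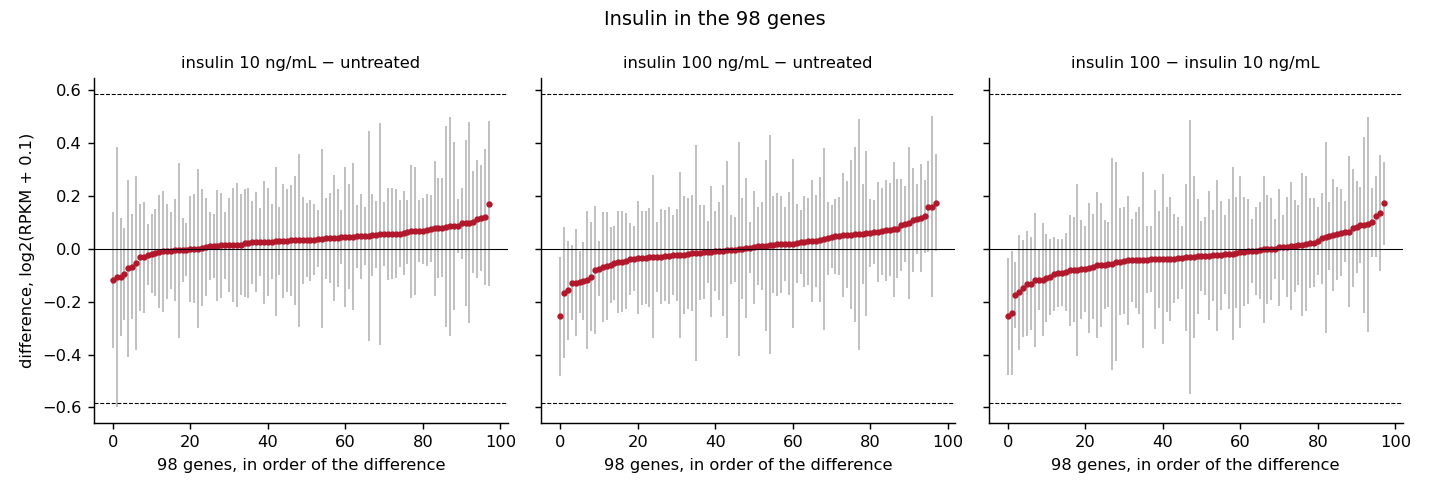
Differences of the 98 members with insulin at 10 ng/mL and at 100 ng/mL from untreated, and between the doses, in log2(RPKM + 0.1), each panel in its own order. Red points are differences, grey lines their 95% intervals and dashed lines 1.5-fold; the intervals stay within 1.5-fold except that of Gm20406 at 10 ng/mL.

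Preparations differed in some members. A limma F test between preparations within the 8 insulin libraries called 10 of the 98 members (10.2%), where 8.05% of all 13112 genes were called, so the share in these libraries was near the background. Over all 20 libraries without LPS/IFNγ, which include those that chose the members, the same test called 73 of the 98 members (74.5%) and 36.8% of all 14038 genes, low ones included, and nothing about the members is read from it. Fnip2, which binds folliculin, had the lowest adjusted p. It had 8.69, 15.2, 14.04 and 12.8 RPKM with insulin at 10 ng/mL in preparations 6, 9, 10 and 11, and 8.44, 15.7, 13.8 and 11.9 RPKM at 100 ng/mL (limma adjusted p = 0.00156). Preparation 6 was lowest at both doses, and it was also lowest in the LPS/IFNγ group, at 2.04 RPKM against 9.20 RPKM in the untreated library of that preparation. Csf1r followed, with 29.5, 24.8, 40.3 and 27.9 RPKM at 10 ng/mL and 26.7, 23.5, 37.2 and 30.0 RPKM at 100 ng/mL (limma adjusted p = 0.00806). The other 8 were Isyna1, Osgin1, Gm16556, Tst, Gcnt1, Amer2, Abhd15 and Gnpda1. The median range between preparations in the insulin libraries was 0.25 over the members and 0.32 over all genes, but with a pseudocount of 1 it was 0.24 over the members and 0.20 over all genes, so no order is read from it.

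The members were also compared, without a test, with the other genes at 5 RPKM or more for features that the rule did not use. Chromosome 11 held 18 of the 96 placed members (18.8%) and 8.35% of the other genes, the largest member share of any chromosome. Chromosome 8 held 9.38% of members and 4.79% of the others, and chromosome 5 held 1.04% and 5.82%. Among the 18 were Phospho1 and Gngt2, which have a single protein-coding gene between them, and Zfp652 next to Phospho1. Further neighbours with at most 1 such gene between them included Dctpp1 and Sephs2 on chromosome 7, and Nt5dc2 and Nisch on chromosome 14. The share of such neighbours among the other genes is not given, so nothing is read from these pairs. A ratio of observed to expected CpG of 0.6 or more was found in 63.0% of the 73 member promoters and in 77.4% of 4066 promoters of the other genes. The 3′ untranslated regions of 89 members had a median length of 1430 bases, against 996 bases in 4975 other genes. The AU-rich letters TATTTAT stood in 20.2% of these member regions and in 27.8% of the others. Members therefore had longer 3′ untranslated regions in the median, and a smaller share of them with the AU-rich letters. Their median exon length was shorter, at 3547.5 bases against 4384.5 bases. The median GC content of their transcripts was 53.5%, against 49.7% in the others, and its part in the count of AU-rich letters was not tested.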

How the data were processed

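Messenger RNA libraries of 24 neutrophil cultures, 4 in each of 6 groups, were analysed. The authors deposited RPKM values per gene and library, which they made with CLC Genomics Workbench on mm10 (GRCm38) after base calling with bcl2fastq 2.17.1.4 per the submitters' processing notes. The libraries were made with a stranded kit, but no source used here states whether the counting used strand. RPKM normalizes for library total and gene length, so strong increases of some genes can lower all others. Mapped reads were recovered as the total at which genes under 200 reads gave whole reads (76.5% to 77.9% of them, tolerance 0.01). They came to 18748634 to 30925209, with a median of 23305916.

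Values were taken as log2(RPKM + 0.1), which understates changes of low genes. The tests used limma 3.58.1 in R 4.3.3 with statmod 1.5.0, with a trended and robust prior, on genes that reached 0.1 RPKM in 4 or more libraries compared. Calls required a p below 0.05 after Benjamini-Hochberg adjustment together with a 1.5-fold difference, and for preparations the adjusted p alone. The scripts were tested on simulated data. Other steps used Python 3.11.15 (numpy 2.4.6, pandas 2.3.3, matplotlib 3.10.9). The study took log2 RPKM, prefiltered at 0.1, and called genes by fold change and p in Qlucore, with no adjustment of p stated. Its groups and 1.5-fold threshold were kept, while the pseudocount, limma, the filter over libraries and the adjusted p were chosen here.

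The members and lists were chosen with earlier results of these data known. Members are named if among the 12 highest untreated levels or the 12 largest differences, on a role or marker list, nearest a threshold, called with insulin or with a library apart, or a neighbour or family member of another, which gave 53 names. Others, such as Arrb1, Bmx, Arsg, Dgat2 and Ctnnbip1, were added for a known role after their values were seen. Libraries with the same preparation number deviated together: the 60 pairs had correlations of 0.18 to 0.77 of their deviations from group means, and the 180 pairs of other numbers and groups -0.49 to 0.18. Positions are from GENCODE M21 (GRCm38) and promoters from RefSeq. A total of 73 of 98 symbols had a promoter entry. Results for a few items are not reported here. Alternatives were the pseudocount, filters, scaling, centring, the block on preparation, the model settings and leaving out each library.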

Additional observations from a re-analysis of the deposited data

Results flagged for a closer look

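The 45 members examined library by library gave 270 groups of 4 libraries. By Dixon's criterion, 13 groups had a library far from its 3 fellows. Chance gives about 1 in 20, so the number was near that share and nothing about the members is read from it. Of the 13 groups, 3 concerned Csf1r in preparation 10, with 12.04 RPKM with LPS/IFNγ (others 7.94 to 8.61), 45.5 RPKM with IL4 (others 28.3 to 29.6) and 45.4 RPKM with IGF1 (others 27.6 to 30.4). In preparation 9, LPS/IFNγ libraries stood apart in Ccl6 at 108 RPKM (others 80.6 to 82.1) and in Abhd15 at 1.70 RPKM (others 0.986 to 1.02). In preparation 6 the insulin 100 ng/mL library stood apart in Prkar2a at 7.54 RPKM (others 6.45 to 6.51), in Amer2 at 16.3 RPKM (others 22.3 to 23.4) and in Cdk5r1 at 11.4 RPKM (others 13.2 to 13.4). The insulin 10 ng/mL library of that preparation stood apart in Cd300lb at 108.6 RPKM (others 116.6 to 118.1) and in Gm20406 at 3.72 RPKM (others 5.98 to 6.35). Its untreated library stood apart in Idh1 at 32.6 RPKM (others 29.9 to 30.1) and in Fnip2 at 9.20 RPKM (others 12.3 to 12.9). The IGF1 library of preparation 10 had 102 RPKM of Rdh12 (others 73.4 to 75.5).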

How the results depend on the processing

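The number of members depended on the thresholds and the scale. The same conditions gave 60 genes with a pseudocount of 1 (59 shared with the 98), 49 with median-of-ratios scaling (49 shared), 53 after the median of all genes was subtracted (53 shared) and 160 with an untreated mean of at least 1 RPKM (98 shared). Leaving out single libraries gave 89 to 105 genes, and 67 members were chosen in all 16 such runs. Of the values of 53 named members under 13 settings, 591 stayed within the replicate spread, 98 moved and 0 reversed. With LPS/IFNγ, a pseudocount of 1 gave 2183 calls in place of 3387. With insulin at 100 ng/mL against untreated, a pseudocount of 0.01 gave 1 call and leaving out single libraries 0 to 1, the 1 without the insulin 100 ng/mL library of preparation 10. Between the doses, leaving out single libraries gave 0 to 86 calls. The F test between preparations gave 5166 calls over all 20 libraries without LPS/IFNγ, against 1055, and 73 members in place of 10, from libraries that partly chose them. With the replicate block on preparation, LPS/IFNγ gave 3572 calls and each insulin comparison 0, so the block changed no call of a member, although more genes had an unadjusted p under 0.05. The cause of these shifts was not tested. Low members rest on few reads, down to 12 in a library.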
